A study of Homo sapiens with 10 samples.

Results

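Clone D4 was derived from KYSE-410, a human cell line established from a squamous carcinoma of the oesophagus, and was compared with the control colony of the same experiment in bulk RNA-seq. D4 was edited with CRISPR/Cas9n plasmids (a Cas9 nickase with guide RNAs) against SHIP2, whose gene is INPPL1. The other edited clones were G4, G10 and H3, and the control colony received the same plasmid without a guide and kept its wild-type genotype. All 5 lines were co-transfected with a GFP-based reporter, sorted as GFP-positive cells and expanded, and the clones were chosen by Western blot for SHIP2. Each edited line is 1 clone and the control is 1 colony, with 2 libraries each. The comparison used the 2 D4 and 2 control libraries of the 10 in the series. It covered the genes with at least 1 CPM (read counts scaled to a common total per library) in at least 2 of these 4 libraries, which were 16788 of 58302. The 6 libraries of the other clones served to show what was particular to D4. Nothing in the labels says that the 2 libraries of a line were separate cultures, so p-values measure only the spread between these samples, which may be technical.

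SHIP2 is a lipid phosphatase. It removes a phosphate from the lipid that PI3K makes at the plasma membrane, a lipid that recruits the kinase AKT, and it also binds adaptor, endocytic and cytoskeletal proteins. Squamous carcinoma cells of the oesophagus usually carry features of the basal layer of the squamous epithelium, among them basal keratins, the transcription factors TP63 and SOX2, and a strong dependence on EGFR. With 1 D4 clone and 1 control colony, an effect of the edited gene and a property of the clone cannot be told apart.

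INPPL1 mRNA was present in D4. Its level was 83.6 and 93.3 CPM in the D4 libraries, 65.4 and 64.4 in G4, 9.49 and 9.49 in G10, 88.1 and 85.3 in H3, and 140 and 150 CPM in the control colony. D4 was below both control libraries, with a log2 difference of -0.71 ± 0.08 (SE, n = 2 each, adjusted p = 3.84e-06 in limma). The gene lies on chromosome 11 (GRCh38, chr11:72223701-72239105, plus strand). Against the mean of the other 3 clones D4 was higher by 1.19 ± 0.06, a value that dropped to 0.23 without the G10 libraries. The D4 and H3 libraries overlapped, and both lines lay above G4 and G10. SHIP2 protein was not analysed here.

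The 10 libraries held an estimated 9653837 to 14253420 gene-assigned reads, and the D4 libraries 10198858 and 9653837. A count of 0 allows up to 3 reads, which is 0.294 and 0.311 CPM in D4 and 0.268 and 0.229 CPM in the control libraries, for counting error only. The variance between the 2 libraries of a line was 3.88 times the counting variance in D4, 2.31 to 13.7 times in the other clones and 4.08 times in the control colony, with G10 the widest. The squamous markers were present, with 11 of 14 listed genes at 1 CPM or more in both D4 libraries, against 12 in both control libraries. Their summed level was 2080 and 2300 CPM in D4, 1230 to 2320 CPM in the other clones and 3120 and 3240 CPM in the control colony. KRT14, a keratin of basal squamous cells named after its values were seen, was low throughout, at 0.5 and 1.25 CPM in D4 and 0.999 and 1.4 CPM in the control libraries.

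D4 differed from the control colony in a large share of its transcriptome. In limma on log2(CPM + 1), with Benjamini-Hochberg adjustment at 0.05, 3085 genes were higher in D4 (18.4% of those tested) and 4159 were lower (24.8%). Most of these differences were small, since 451 genes (2.69%) rose and 623 (3.71%) fell by 2-fold or more on that scale, which understates the change of genes with few reads. With median-of-ratios size factors the split was 3637 higher and 3481 lower. Against the mean of the other 3 clones, a difference from which the control cancels out, 2537 genes (15.1%) were higher in D4 and 3241 (19.3%) lower, and 3211 and 2665 with median-of-ratios factors. At 2-fold or more, 165 (0.983%) were higher and 172 (1.02%) lower. Without D4 replicate 1 the counts at any size dropped to 1459 and 2151.

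A smaller group of genes set D4 apart from every other line. In this group D4 passed in the same direction against the control colony and against each of G4, G10 and H3. It held 407 genes higher in D4 (2.42%) and 714 lower (4.25%). The counts were 846 and 1278 when the widely spread G10 libraries were left out. That also removed the comparison with G10 from the rule, so larger counts were to be expected and the sets are not alike. The higher count dropped without D4 replicate 1. Both D4 libraries lay above all other 8 libraries for 1169 genes (6.96%) and below them for 1801 (10.7%).

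The 10 largest rises particular to D4 were RASGRP1, UPK1B, SRGN, COL5A1, AC083800.1, TGM5, KRT5, ZNF100, OLR1 and CYP2B6. RASGRP1, an exchange factor that loads RAS with GTP, stood at 62.1 and 52.6 CPM in D4, against 0.3 and 0.4 in G4, 2.5 and 2.35 in G10, 23.6 and 31.6 in H3, and 1.2 and 0.799 CPM in the control colony. H3 was the next highest and G4 the lowest. The log2 difference was 4.87 ± 0.17 from the control (adjusted p = 1.13e-11) and 3.52 ± 0.14 from the other clones (adjusted p = 1.37e-10; limma, n = 2 a line). A gene annotated as antisense to RASGRP1 overlaps it, and the strand setting of the authors' counting is not given in the sources used here.

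UPK1B, a uroplakin known from the surface of urothelial cells, had 71.3 and 59.6 CPM in D4, 8.3 and 7.9 in G4, 4.5 and 2.95 in G10, 8.2 and 7.89 in H3, and 15.3 and 13.4 CPM in the control colony. The other clones were all below the control here, so D4 moved the opposite way, by 2.11 ± 0.15 from the control (adjusted p = 3.6e-08) and 3.19 ± 0.12 from the other clones. AC083800.1, which overlaps UPK1B on the same strand, rose with it, by 2.02 and 2.70, and reads of the pair cannot be told apart. SRGN, the core protein of the proteoglycan serglycin, was likewise highest in D4, at 29.1 and 24.5 CPM. It had 15 and 15.8 CPM in G4 and 10.9 and 8.89 CPM in the control colony, and nowhere above 1.1 CPM in G10 and H3.

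KRT5, the basal keratin that pairs with KRT14, was at 53 and 57.4 CPM in D4. The other clones had 6.35 and 6.8 (G4), 10.5 and 8.24 (G10) and 17.1 and 19.4 CPM (H3), and the control colony 13.6 and 12.8 CPM. Both D4 libraries were more than the highest of the other 8, and D4 rose by 1.98 ± 0.13 against the control (adjusted p = 8.37e-09) and by 2.29 ± 0.10 against the other clones. TGM5, a transglutaminase of the epidermis that crosslinks proteins of the cornified envelope, reached 16.6 and 17 CPM in D4 and 8.29 and 6.34 CPM in H3, with at most 1.85 CPM in any library of G4, G10 and the control colony. COL5A1, a chain of the fibrillar type V collagen, had 24.2 and 26.8 CPM in D4, 9.79 and 12.3 CPM in G10, and at most 1.6 CPM in the remaining libraries.

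Genes with lower levels made up the rest of the rises that the rule on size named, ZNF100, OLR1 and CYP2B6. ZNF100, a zinc finger gene of chromosome 19, had 6.1 and 4.25 CPM in D4, against at most 0.65 CPM in any library of the other clones and 0.3 and 0.35 CPM in the control colony. OLR1, a receptor for oxidised LDL, had 102 estimated reads over both D4 libraries and 4 over both control libraries, a depth-adjusted ratio of 31.2 with a 95% interval of 11.8 to 117 for counting error only. CYP2B6, a cytochrome P450, had 10.4 and 8.59 CPM in D4, 0.2 to 2.75 CPM in the other clones and 2.6 and 2.4 CPM in the control colony. Each of these genes was above all other 8 libraries in both D4 libraries.

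PNMA5 gave the widest gap of any gene named. This member of the paraneoplastic Ma antigen family was at 0.1 and 0.15 CPM in D4, which is 1 estimated read in each library. The other clones had 257 and 258 (G4), 237 and 227 (G10) and 197 and 193 CPM (H3), and the control colony 262 and 269 CPM. All 8 other libraries therefore carried a well expressed transcript that was nearly absent in D4. The ratio of control over D4 was 2639 with a 95% interval of 730 to 21798 (counting error only), and the fitted log2 difference was -7.89 ± 0.07 (adjusted p = 2.58e-19). PNMA5 lies in distal Xq at chrX:152988824-152994127 (GRCh38, minus strand), inside the stretch described further on.

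Several other transcripts that the control colony expressed were close to 0 in D4 and lay between in the other clones. SERPINB2, an inhibitor of the urokinase plasminogen activator, had 1.2 and 0.849 CPM in D4, 69.2 and 69.9 in G4, 18.2 and 14.6 in G10, 8.39 and 8.89 in H3, and 263 and 239 CPM in the control colony. D4 was the lowest line by a wide margin (-6.96 ± 0.12 from the control, -3.50 ± 0.10 from the other clones). SERPINB10, its neighbour on chromosome 18, followed the same order, but the 2 genes overlap on the same strand and reads may be shared. KLF13, a Krüppel-like transcription factor, had 0.4 and 0.65 CPM in D4, 51.2 and 53.6 in G4, 1.9 and 0.799 in G10, 7.64 and 7.39 in H3, and 64.1 and 61.6 CPM in the control colony. For KLF13 the second G10 library came close to D4.

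SIRPA, the cell surface receptor for CD47, had 0.8 and 1.15 CPM in D4, 4.45 to 39.5 CPM in the other clones and 22 and 20.8 CPM in the control colony. FOXA2, a forkhead factor of endodermal epithelium, had 0.9 and 0.45 CPM in D4, 2.85 to 24 CPM in the other clones and 13.2 and 11.3 CPM in the control colony. The log2 difference from the control was -3.51 ± 0.16 for SIRPA and -3.0 ± 0.17 for FOXA2 (adjusted p = 2.12e-10 and 2.66e-09). BTBD11 had 0.7 and 0.35 CPM in D4, while G10 and H3 stood above the control colony, at 15.5 to 18.5 CPM against 7.89 and 7.64 CPM. The zinc finger gene ZNF649 was represented by 1 estimated read over both D4 libraries and 111 over both control libraries, a ratio of control over D4 of 90.8 (95% interval 16 to 3618, counting error only).

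A pair of neighbours on distal 5q fell in D4 below every other line. GPX3, a secreted glutathione peroxidase, had 7.95 and 7.69 CPM in D4, 26.3 to 52.9 CPM in the other clones and 49.3 and 52.3 CPM in the control colony (-2.55 ± 0.09, adjusted p = 1.03e-11). GM2A, the lysosomal activator of ganglioside breakdown, had 3.85 and 5.4 CPM in D4, 18.9 to 43.1 CPM in the other clones and 27.1 and 23.6 CPM in the control colony (-2.24 ± 0.14, adjusted p = 6.29e-09). The 2 genes are near each other, GPX3 at chr5:151020438-151028993 and GM2A at chr5:151212150-151270440 (GRCh38, both plus strand). The window of 50 genes around them had a median of -0.14 against the other clones, so the pair moved further than its neighbourhood.

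**Figure D1:**
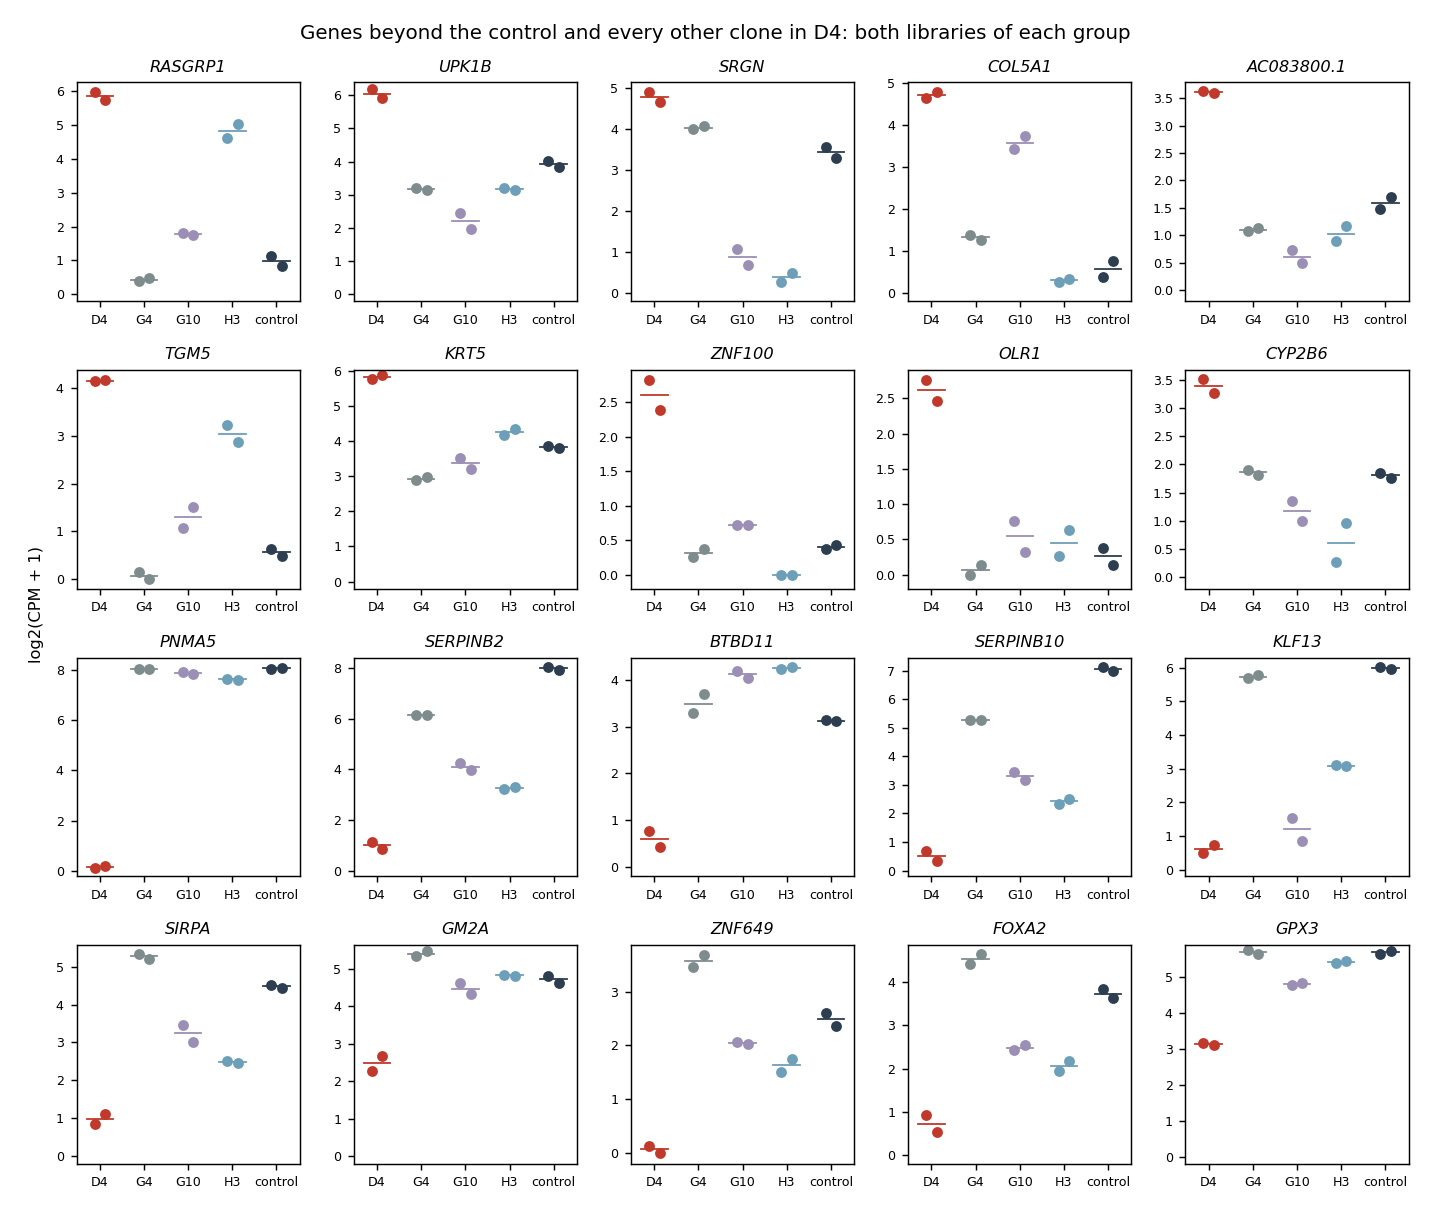
Expression of the 10 largest rises and 10 largest falls particular to D4, with log2(CPM + 1) on the y axis and the lines D4, G4, G10, H3 and control on the x axis. Dots are single libraries and the bar is the mean of 2. In each panel both D4 dots lie above or below the other 8, as the rule that chose these genes required, and PNMA5 shows D4 near 0 with all other lines between 193 and 269 CPM.

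The promoters of these 20 genes are the sequences next to the widest differences particular to D4. RefSeq promoters (GRCh38.p14, 250 bases before the start and 50 after) were available for 12 of them. The 4 printed are those of the widest fall, PNMA5, and of 3 of the largest rises, chosen to show promoters rich and poor in CG dinucleotides. They read 5′ to 3′ on the gene's strand, with every CG dinucleotide in capitals.
PNMA5, chrX:152994067-152994366, minus strand: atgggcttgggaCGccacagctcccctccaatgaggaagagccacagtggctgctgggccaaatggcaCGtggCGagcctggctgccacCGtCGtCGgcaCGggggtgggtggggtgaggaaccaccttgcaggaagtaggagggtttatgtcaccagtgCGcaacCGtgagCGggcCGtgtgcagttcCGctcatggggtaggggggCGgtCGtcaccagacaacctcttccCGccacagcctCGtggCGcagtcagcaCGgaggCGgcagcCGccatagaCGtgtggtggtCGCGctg
RASGRP1, chr15:38564765-38565064, minus strand: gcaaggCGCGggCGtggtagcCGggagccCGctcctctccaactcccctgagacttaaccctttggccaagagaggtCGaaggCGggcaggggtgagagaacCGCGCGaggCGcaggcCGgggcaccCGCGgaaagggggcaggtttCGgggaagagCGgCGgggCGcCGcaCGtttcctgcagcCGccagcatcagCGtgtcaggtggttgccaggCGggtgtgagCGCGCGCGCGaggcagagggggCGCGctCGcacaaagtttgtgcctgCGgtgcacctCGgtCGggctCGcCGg
UPK1B, chr3:119173348-119173647, plus strand: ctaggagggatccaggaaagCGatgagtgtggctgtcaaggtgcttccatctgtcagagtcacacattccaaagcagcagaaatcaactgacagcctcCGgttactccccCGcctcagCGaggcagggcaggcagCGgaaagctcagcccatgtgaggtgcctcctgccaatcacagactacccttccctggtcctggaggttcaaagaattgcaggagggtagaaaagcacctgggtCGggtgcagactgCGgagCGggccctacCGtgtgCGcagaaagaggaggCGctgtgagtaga
KRT5, chr12:52520345-52520644, minus strand: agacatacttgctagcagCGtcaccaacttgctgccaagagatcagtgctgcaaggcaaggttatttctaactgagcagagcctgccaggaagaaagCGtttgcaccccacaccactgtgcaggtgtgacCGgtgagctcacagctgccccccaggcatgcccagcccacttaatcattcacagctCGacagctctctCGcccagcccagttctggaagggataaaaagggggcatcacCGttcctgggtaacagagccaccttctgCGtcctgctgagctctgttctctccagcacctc
The PNMA5 promoter held 23 CG dinucleotides and the RASGRP1 promoter 36, against a median of 26 over 10459 promoters of tested genes. UPK1B had 11 and KRT5 had 7, fewer than most, as 14.8% and 10.1% of tested promoters had fewer. Over the 12 genes the median was 10 CG dinucleotides in the promoters of genes higher in D4 and 21 in those of genes lower in D4. The letters TATAAA on either strand were in the promoters of SERPINB2 and CYP2B6 and in 5.94% of all tested promoters. These matches describe the windows and say nothing about methylation or binding.

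Many of the genes lowered in D4 were neighbours on the chromosomes. Genes that averaged 5 CPM or more over the 10 libraries were placed in 242 consecutive windows of about 50, and the median log2 difference of D4 was taken in each. Against the other clones these medians were narrow, with quartiles of -0.11 and 0.05 and a highest value of 0.27. On the low side, 15 windows reached -0.3 or lower, and 8 of them did so against the control colony as well. These 8 windows held 466 of the 12694 genes in windows. Of the 714 genes lower in D4 than in every other line, 623 were among the genes in windows. The 8 windows held 215 of that set (30.1% of the 714). The windows were picked by their low D4 medians, so a high share of lower genes was built in. When each window's median was subtracted before the fit, that set shrank to 408 genes, while the set higher in D4 grew to 510. DNA copy number was not analysed here, and the part of gene dosage in these shifts was not tested.

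**Figure D2:**
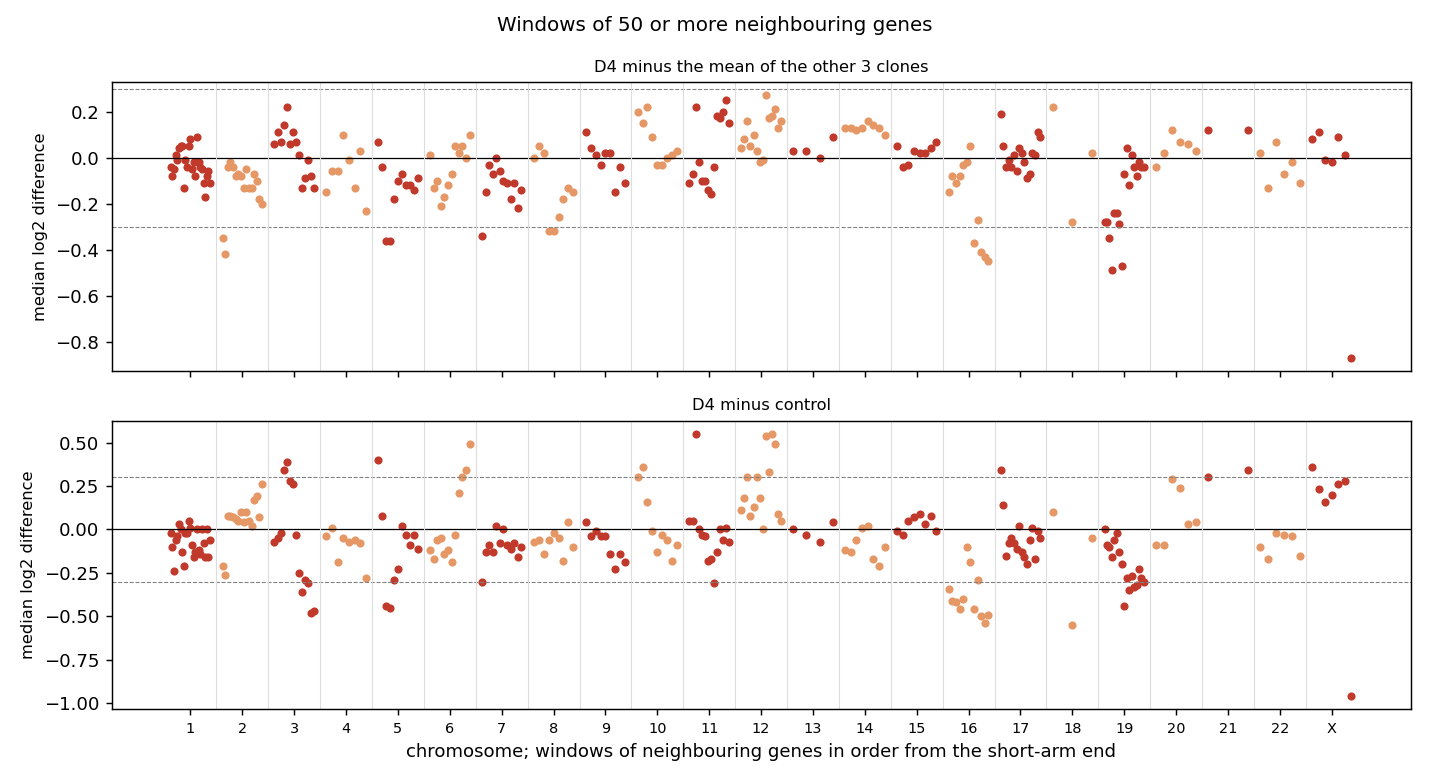
Median log2 difference of D4 over 242 windows of neighbouring genes, ordered by chromosome on the x axis, against the mean of the other 3 clones (top) and against the control colony (bottom). Dashed lines mark ±0.3. The last window of X stands lowest at -0.87 and -0.96, and 4 windows of 16q, a pair on chromosome 5 and the first of chromosome 7 are at or below the lower line in both panels.

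The end of the long arm of X was the deepest of these stretches. The last window ran from FMR1 to WASH6P (chrX:147911951-156025710, GRCh38) and held 75 genes, with a median log2 difference of -0.96 from the control and -0.87 from the other clones. G4, G10 and H3 had medians of -0.10, -0.10 and -0.08 against the control for the same genes. Of the 75 genes, 70 were lower and 1 higher in D4 than in the control, and 72 were lower and 0 higher than in the other clones. Both D4 libraries were below the other 8 for 65 of them (86.7%, against 10.7% of all genes). Expressed as a share of the control mean, the median gene stood at 49.3% and 50.4% in the D4 libraries and at 91.1% to 96.8% in those of the other clones.

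The summed level of the window was 3534 and 3806 CPM in D4, 6469 to 7732 CPM in the other clones, and 7406 and 7877 CPM in the control colony. The 300 genes in the other 6 windows of X had medians of 0.22 and 0.03, and the lower level began at the end of the sixth window. Going down the arm, RBMX was at 0.46 and 0.07 from the control and the other clones. FGF13 (-0.91 and -0.54) and FMR1 (-0.80 and -0.81) lie beyond it and were lower in D4 in both comparisons. The change of level lay between RBMX and FGF13, around chrX:136880764-138614731, as far as genes of this level resolve it. WASH6P, the last gene and one of a family of near-identical copies, was at -0.05 and -0.06.

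**Figure D3:**
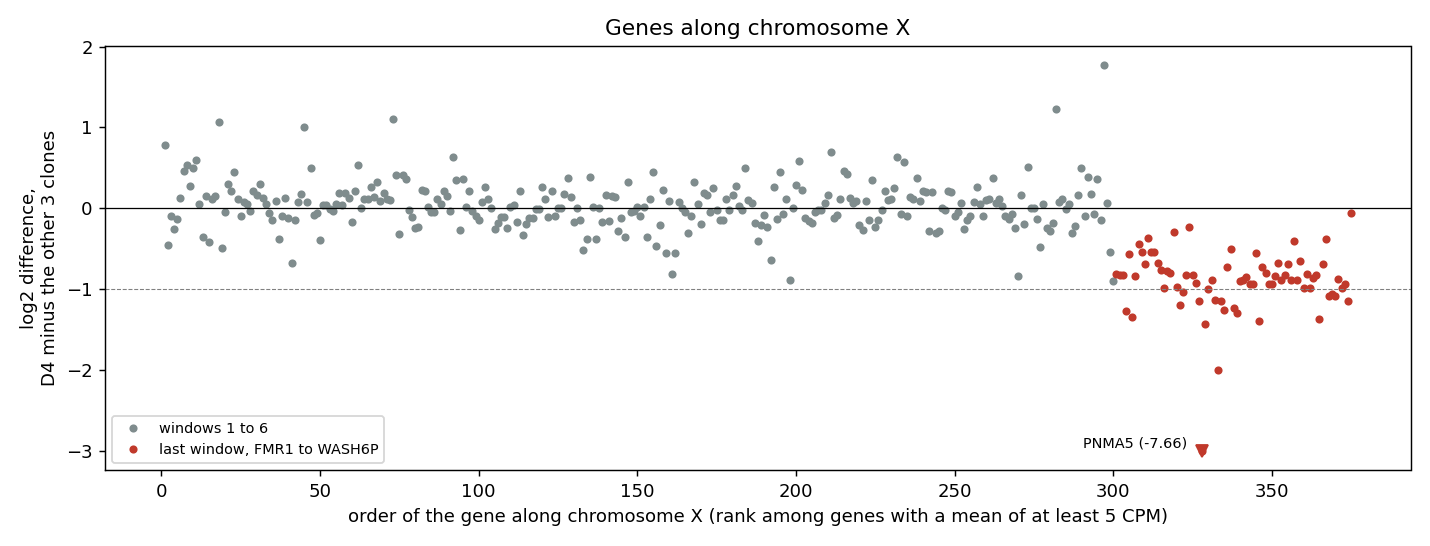
Log2 difference of D4 from the mean of the other 3 clones for genes along X, in order of position on the x axis. Genes of the last window are red, the dashed line marks -1, and PNMA5 is drawn as a triangle at the axis limit with its value of -7.66. Differences scatter around 0 over most of the chromosome and sit near -1 in the last window.

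The examples of genes in this window were picked after their values were seen. FLNA, the actin crosslinker filamin A and a binding partner of SHIP2, had 1070 and 1270 CPM in D4, 1560 to 2620 CPM in the other clones and 2320 and 2640 CPM in the control colony. RPL10, a protein of the large ribosomal subunit, had 248 and 253 CPM in D4, 445 to 509 CPM in the other clones and 502 and 478 CPM in the control colony. For both genes each D4 library was below every library of the other lines, while the other clones and the control colony overlapped. IRAK1, a kinase of the interleukin-1 and Toll-like receptor pathway, had 120 and 142 CPM in D4, 275 to 442 CPM in the other clones and 299 and 341 CPM in the control colony. NSDHL, an enzyme of cholesterol synthesis, was at -0.85 ± 0.09 from the control.

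Some members departed from the common shift. SLC6A8, the creatine transporter, was lower still in D4, at 56.8 and 59.7 CPM, against 122 to 169 CPM in the other clones and 179 and 183 CPM in the control colony (-1.62 ± 0.06). DUSP9, a phosphatase of MAP kinases, was at -2.02 ± 0.17 from the control. MAGEA11, a cancer-testis antigen, was the 1 gene higher than the control, with 1.6 and 2.1 CPM in D4 and 0 in both control libraries, yet G10 and H3 had 16.9 to 20.3 CPM. After subtraction of the window median, RPL10 was at -0.01 and FLNA at -0.13 from the control, and neither passed.

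On 16q the shift was shallower and longer. The last 5 windows of chromosome 16, from DNAJA2 to URAHP (chr16:46955362-90047773), held 291 genes with medians of -0.46 against the control and -0.40 against the other clones, where the other clones had -0.05 to -0.07 against the control. In D4 203 of them were lower and 14 higher than in the control, and 123 belonged to the set lower than in every other line, which is 17.2% of that set. Their summed level was 14790 and 15200 CPM in D4, 18400 to 19570 CPM in the other clones and 20080 and 20350 CPM in the control colony. The remaining 7 windows of the chromosome were at -0.34 against the control but at -0.06 against the other clones, and there H3 was at -0.54 and G10 at -0.20 against the control. MLKL, the effector of necroptosis, lies in the 16q stretch and fell further than it, with 11.8 and 14.7 CPM in D4, 25.8 to 36.8 CPM in the other clones and 29.1 and 32.9 CPM in the control colony (-1.17 ± 0.11).

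Shallower stretches low against both the control and the other clones were on chromosomes 5 and 7. The windows from NDUFS4 to RPS23 (chr5:53560633-82278577) had a median of -0.44 against the control and -0.36 against the other clones, with 73 of 100 genes lower and 4 higher than in the control. The first window of chromosome 7 was at -0.30 and -0.34. The other 7 of the 15 windows at -0.3 or lower against the other clones were nearer to the control. A pair at the start of chromosome 2 was at -0.24 against the control and -0.38 against the other clones. Chromosome 19 had 3, at -0.35, -0.49 and -0.47 against the other clones and -0.10, -0.16 and -0.20 against the control, and there G10 and H3 stood 0.30 to 0.41 above the control. Chromosome 8 had a pair at -0.32 each against the other clones and -0.06 and -0.02 against the control, with H3 at 0.58 and 0.52. No window reached 0.3 on the high side against the other clones, although windows on chromosomes 11 and 12 reached 0.55 against the control.

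In many of the largest differences from the control colony G10 and H3 lay near D4 and G4 near the control. The comparisons of all clones share the 2 control libraries, so the levels of each line are given side by side. VGLL1, a cofactor of TEAD transcription factors, had 56.6 and 56.9 CPM in D4, 2.55 and 3.85 in G4, 45.6 and 37.2 in G10, 24.2 and 29.8 in H3, and 2.8 and 2.25 CPM in the control colony (4.04 ± 0.16, adjusted p = 1.23e-10). LIMCH1, an activator of non-muscle myosin, had 105 and 98.6 CPM in D4, 74 to 84.8 CPM in G10 and H3, 8.65 and 10.9 CPM in G4, and 8.6 and 8.59 CPM in the control colony. H19, an imprinted long non-coding RNA, was high in D4 (34.9 and 36.4 CPM) and in H3 (30.4 and 29.9 CPM) but not in G10 (5.7 and 7.99 CPM), with 1.1 and 2 CPM in the control colony. AKAP2 rose by 3.36 and its readthrough annotation PALM2-AKAP2 by 3.42, but these annotations share reads.

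A few rises came from genes nearly absent in the control colony. WNT5A, a ligand of non-canonical WNT signalling, had 11.8 and 11.2 CPM in D4, 2.3 and 2.9 in G10, 4.95 and 4.85 in H3, 0.1 and 0 in G4, and 0.1 and 0.2 CPM in the control colony. Its ratio of D4 over control was 92.9 with a 95% interval of 31.4 to 454 (counting error only), and both D4 libraries were above all other 8. LINC00665 had 12.8 and 12.4 CPM in D4 and 1 estimated read in each control library (ratio 153, 95% interval 42 to 1274), but G10 was higher still at 21.7 and 20.6 CPM.

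Among the falls, MEST, an imprinted gene of the hydrolase fold, had 3.55 and 3.65 CPM in D4, 93.5 and 88.4 in G4, 1.45 to 3.2 CPM in G10 and H3, and 101 and 103 CPM in the control colony (-4.49 ± 0.14). GSTP1, a glutathione transferase of detoxification, had 1.1 and 2.1 CPM in D4, 43 and 41.2 in G4, 0.1 to 1.15 CPM in G10 and H3, and 44.7 and 49.7 CPM in the control colony (-4.24 ± 0.20). In both, D4, G10 and H3 formed a low group and G4 and the control a high one. TTYH2, a member of the tweety family of membrane proteins, and the glycosyltransferase GALNT18 fell by 4.21 and by 4.10. LY6D, a surface protein of stratified epithelium, fell by 4.63. Genes annotated as antisense overlap MEST, LY6D and TTYH2, with log2 differences of -3.92 and -2.57 for MEST, -3.86 for LY6D and -1.69 for TTYH2.

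**Figure D4:**
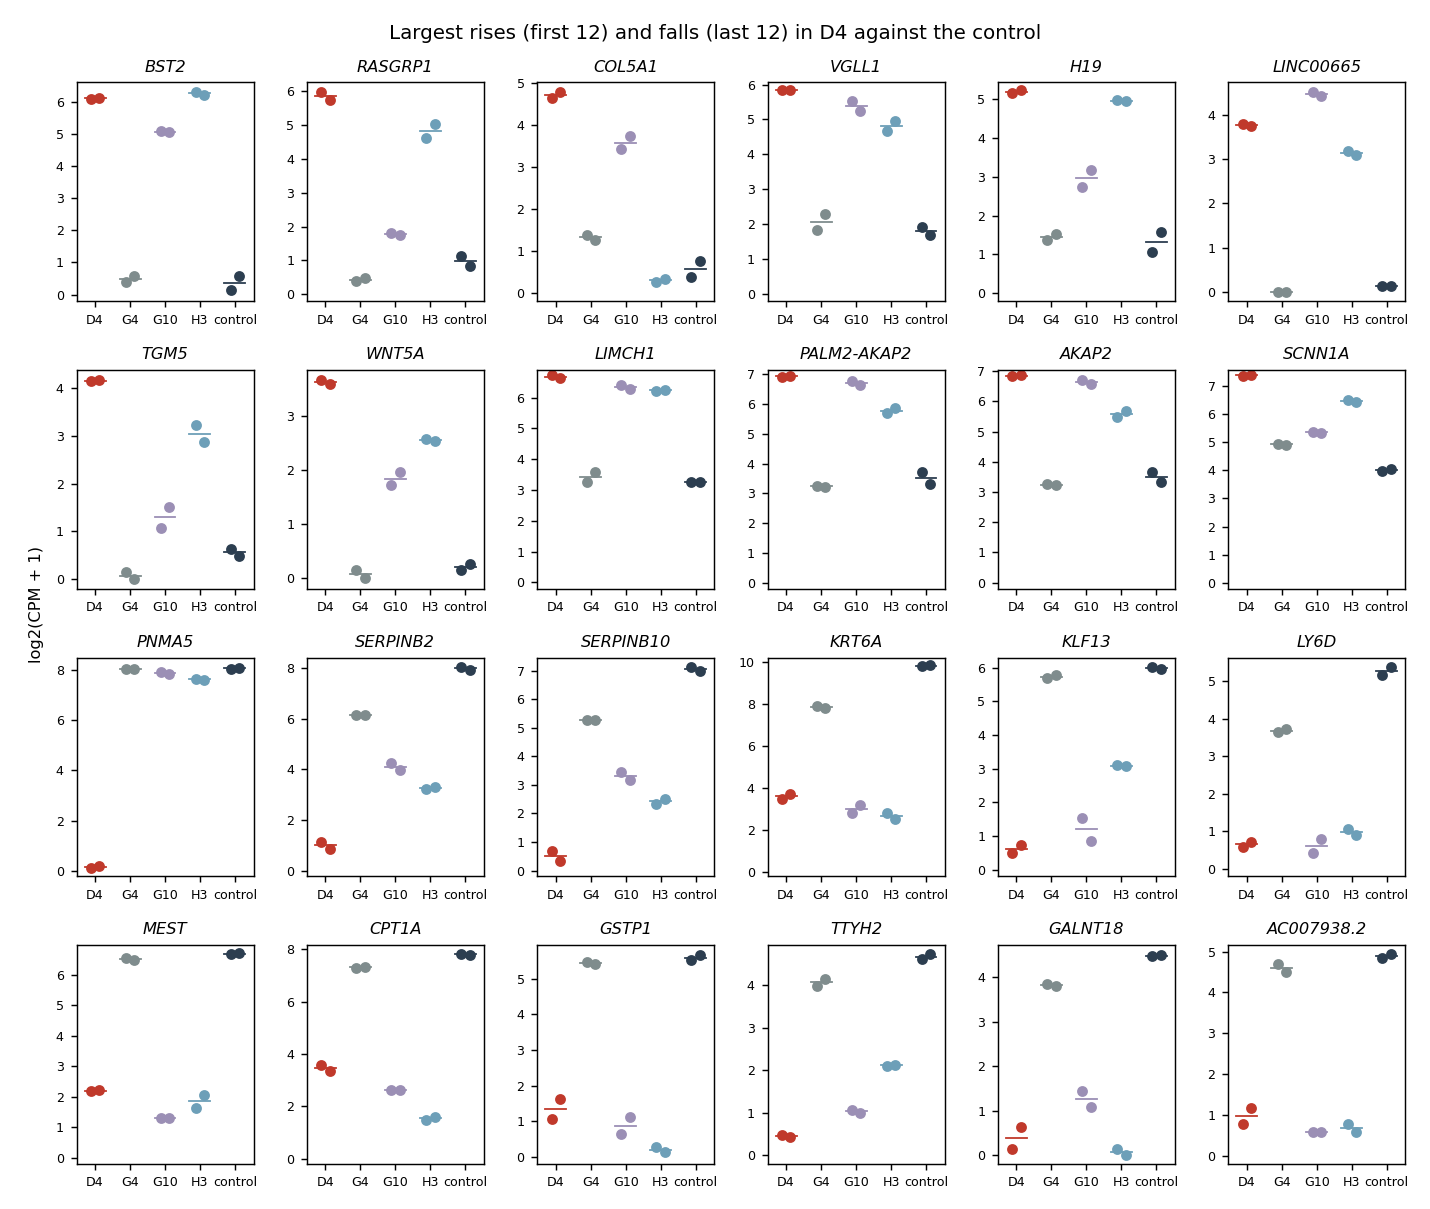
The 12 largest rises and 12 largest falls of D4 against the control colony, with log2(CPM + 1) on the y axis and the lines D4, G4, G10, H3 and control on the x axis. Dots are single libraries and bars are means of 2. In most panels G4 lies near the control and G10 and H3 nearer to D4, whereas PNMA5 separates D4 from all others.

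Gene groups were then read by counts of members that passed and by their median log2 difference. Against the control these stood beside 18.4% higher, 24.8% lower and a median of -0.06 over all genes tested. Against the other clones the values over all genes were 15.1% higher, 19.3% lower and a median of -0.03. In the lipid signalling pathway that SHIP2 belongs to, the shares called were near those of all genes. Of 41 tested phosphoinositide phosphatases and kinases, 7 were higher and 10 lower than in the control, and 11 higher and 6 lower after subtraction of the window medians. PIK3R3, a regulatory subunit of PI3K, had 29.2 and 26.1 CPM in D4, 12.8 to 24.7 CPM in the other clones and 11.2 and 8.89 CPM in the control colony (1.38 ± 0.12, adjusted p = 3.93e-07). PIK3CA, the catalytic subunit often mutated in squamous cancers, was lower, as it also was in G10 and H3. It had 42.1 and 38.1 CPM in D4 and 67.3 and 60.6 CPM in the control colony (-0.66 ± 0.11). PIK3CA lies in a window of chromosome 3 that was lower as a whole in the same clones. The medians of that window against the control were -0.48 in D4, -0.49 in G10 and -0.56 in H3.

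Downstream, 5 of 28 tested genes of the AKT and mTOR pathway were higher and 11 lower, with a median of -0.24. After subtraction of the window medians 7 were higher and 6 lower, with a median of -0.03. AKT1 had 223 and 247 CPM in D4, 165 to 230 CPM in the other clones and 193 and 213 CPM in the control colony, a difference of 0.21 ± 0.07 that no longer passed without D4 replicate 2 or control replicate 1 (0.14 in each). AKT2 was at -0.32 ± 0.07 and PDPK1, the kinase that activates AKT, at -0.66 ± 0.08. Both lie in windows that were lower as a whole, and after subtraction of the window median AKT2 was at 0.02 and PDPK1 at -0.27. Among the FOXO factors, which AKT keeps out of the nucleus, and their targets, 11 of 28 were higher and 5 lower than in the control, or 10 called in all without D4 replicate 1. SESN3, a sestrin, had 1.4 and 2.2 CPM in D4, 1.8 to 11.8 CPM in the other clones and 12 and 13 CPM in the control colony (-2.28 ± 0.18). CAT, the catalase that breaks down hydrogen peroxide, was at 0.87.

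Of 39 endocytic genes and partners of SHIP2, 4 were higher and 13 lower than in the control. Against the other clones 5 were higher and 14 lower, beside 15.1% and 19.3% of all genes. After subtraction of the window medians these counts were 6 and 10 against the control and 5 and 7 against the other clones, with medians of -0.09 and -0.02. DNM1, a dynamin of endocytosis, was at -0.81 ± 0.08 from the control, with 79.8 and 86.2 CPM in D4 and 140 and 151 CPM in the control colony, and the G10 libraries had 80.4 and 90 CPM. It shares its locus with CIZ1 on the opposite strand, which was at -0.71. SNX18, a sorting nexin, had 20.2 and 20.9 CPM in D4, 27.7 to 36.5 CPM in the other clones and 35.8 and 35.6 CPM in the control colony, and it lies in the lowered stretch of chromosome 5. AMPH, amphiphysin, had 32 estimated reads over both D4 libraries and 4 over the control libraries (ratio 9.78, 95% interval 3.47 to 38.1).

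Basal squamous genes were mostly lower than in the control, 18 of 31 against 6 higher, with a median of -0.36, while against the other clones 10 were higher and 7 lower. COL17A1, a collagen of the hemidesmosome, had 27 and 28.4 CPM in D4, 276 and 281 in G4, 36.4 and 35.9 in G10, 33.9 and 30 in H3, and 284 and 296 CPM in the control colony (-3.34 ± 0.08, adjusted p = 8.4e-14). D4 was the lowest of 5 lines. TP63 was at -0.27 ± 0.07 from the control and 0.36 ± 0.06 from the other clones, but the first did not pass without D4 replicate 2 (-0.20) or control replicate 1 (-0.19), the other was 0.05 without G10, and the first was 0.19 after subtraction of the window median.

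The keratins moved in different directions. KRT5 rose in D4 as described, and KRT6A, KRT6B and KRT6C, keratins of activated squamous cells, fell by 6.21, by 2.54 and by 3.36 against the control. These 3 genes are close paralogs, so how the authors' counting split their reads is uncertain. KRT17, a keratin of activated basal cells, had 331 and 370 CPM in D4, 274 and 290 in G4, 53.2 and 57.2 in G10, 40.3 and 47.9 in H3, and 424 and 449 CPM in the control colony. It was nearer to the control in D4 than in G10 and H3, at -0.32 ± 0.08 from the control (-0.24 without D4 replicate 1 and -0.27 without control replicate 2, neither passing) and 1.97 ± 0.07 from the other clones. KRT8 and KRT18, which overlap on opposite strands and form the keratin pair of simple epithelium, rose by 1.09 ± 0.11 and 1.31 ± 0.05, with KRT18 at 830 and 835 CPM in D4, 526 to 830 CPM in the other clones and 327 and 341 CPM in the control colony.

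Squamous differentiation genes split, with 6 of 23 higher and 9 lower than in the control (median -0.04, and 0.02 with median-of-ratios factors). KRT80, a keratin of differentiating epithelium, had 461 and 467 CPM in D4, 115 and 120 in G4, 323 and 342 in G10, 217 and 220 in H3, and 94.6 and 109 CPM in the control colony (2.18 ± 0.07, adjusted p = 4.37e-12), above every other library. GRHL3, a transcription factor of the epidermal barrier, fell to 4.75 and 4.25 CPM in D4, against 32.6 and 34.4 CPM in the control colony (-2.65 ± 0.14). Of 25 desmosome and tight junction genes 5 were higher and 9 lower. DSG3, a desmoglein of squamous cells, fell by 2.70, and CLDN1, a claudin of tight junctions, had 158 and 144 CPM in D4, 72.9 to 92.7 CPM in the other clones and 76.8 and 77.7 CPM in the control colony (0.95 ± 0.08).

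Targets of the YAP and TEAD factors were mostly higher in D4. Of 27 tested, 15 were higher and 5 lower than in the control (median 0.28). Against the other clones 17 were higher and 2 lower (median 0.32, and 20 and 3 without G10). G10 came close to D4, with 13 higher and 6 lower than in the control (median 0.22). G4 had 11 higher and 9 lower (median -0.01) and H3 had 5 higher and 14 lower (median -0.25). In D4, 5 of the 27 were higher than in every other line. TGFB2, a TGF-beta ligand, had 63.6 and 55.2 CPM in D4, 15.1 to 40.3 CPM in the other clones and 8.6 and 7.34 CPM in the control colony (2.75 ± 0.13, adjusted p = 2.31e-10). CTGF, a matricellular protein, had 41.4 and 40.2 CPM in D4, 12.9 to 26.9 CPM in the other clones and 18.9 and 18 CPM in the control colony (1.1 ± 0.10). Both were above all other 8 libraries. TEAD2, a TEAD factor itself, ran the other way, with 1 estimated read over both D4 libraries and 178 over the control libraries (ratio of control over D4 146, 95% interval 25.8 to 5782).

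Of 26 mesenchymal transition genes 11 were higher and 6 lower than in the control (median -0.01, and 0.04 with median-of-ratios factors), and 13 higher and 2 lower than in the other clones (median 0.28). TAGLN, an actin-binding protein of contractile cells, had 7.4 and 7.39 CPM in D4, 1.95 to 2.95 CPM in the other clones and 1.7 and 1.65 CPM in the control colony (1.65 ± 0.16). LOXL2, a crosslinker of collagen, had 43.9 and 48.2 CPM in D4, 14.1 to 43.1 CPM in the other clones and 14.9 and 14.8 CPM in the control colony (1.57 ± 0.10). FN1 and VIM, fibronectin and vimentin, were at 1.50 and 1.32, and FN1 had 451 and 438 CPM in D4, 111 to 446 CPM in the other clones and 162 and 151 CPM in the control colony. ZEB1, a repressor of epithelial genes, was at 0.07 and did not pass. CDH1, the epithelial cadherin, was at -0.25 (adjusted p = 0.00342), but it lies in the lowered stretch of 16q, whose median was -0.46. These last 4 genes were picked after their values were seen.

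In the plasminogen system and its proteases the members diverged, with 8 of 30 higher and 13 lower. PLAT, the tissue plasminogen activator, had 13 and 13.7 CPM in D4, 14.1 and 12.7 CPM in H3 and 1.2 and 0.849 CPM in the control colony (2.83 ± 0.17). MMP1, an interstitial collagenase, fell to 7.65 and 11.5 CPM in D4, against 110 and 95.5 CPM in the control colony (-3.32 ± 0.21), and a transcribed pseudogene overlaps it. MMP28 fell by 2.43, with both D4 libraries below all other 8.

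Receptor tyrosine kinases and EGF family ligands were lower for 16 of 35 and higher for 6 (median -0.21). EGFR itself had 526 and 525 CPM in D4, 459 and 478 in G4, 321 and 296 in G10, 223 and 258 in H3, and 587 and 556 CPM in the control colony. It did not pass against the control (-0.12 ± 0.07, adjusted p = 0.182) and was higher than in the other clones by 0.69 ± 0.06. Its ligands went separate ways, with EREG at 1.16 ± 0.11 and HBEGF at -2.04 ± 0.12, where HBEGF had 5.4 and 5.85 CPM in D4 and 26.9 and 25.5 CPM in the control colony. Of 31 ERK outputs 8 were higher and 11 lower. DUSP5, a phosphatase induced by ERK, was at -1.11 ± 0.13.

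Genes of the unfolded protein response and of ATF4, the factor of amino acid shortage, were lower in D4 as a group. Of 47 tested, 37 were lower and 5 higher than in the control (median -0.47), and 22 lower and 2 higher than in the other clones (median -0.18). The counts were 32 lower and 3 higher against the control after subtraction of the window medians. ASNS, asparagine synthetase, had 19.7 and 20.1 CPM in D4, 37.4 and 35.7 in G4, 68.5 and 62.6 in G10, 49 and 49.4 in H3, and 102 and 101 CPM in the control colony. Every clone was below the control and D4 was the lowest, at -2.29 ± 0.08 (adjusted p = 9.48e-12).

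CHAC1, which breaks down glutathione, had 2.3 and 2.1 CPM in D4, 3.9 to 9.34 CPM in the other clones and 10.9 and 11.9 CPM in the control colony (-1.95 ± 0.15). TRIB3, a pseudokinase induced by ATF4 that binds AKT, had 27.5 and 28.5 CPM in D4, 37.9 to 60.1 CPM in the other clones and 88.4 and 108 CPM in the control colony (-1.77 ± 0.12). For both, D4 lay below all other 8 libraries. ATF4 mRNA was at -0.30 and the chaperone HSPA5 at -0.33, and both were picked after their values were seen. Heat shock and immediate early genes also leaned low, 11 of 19 against 2 higher, with BAG3 at -0.89 ± 0.08.

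Sterol and fatty acid synthesis were higher. Of 27 cholesterol genes 21 were higher and 1 lower in D4 than in the control (median 0.99). H3 had 21 higher and 2 lower than the control (median 1.06) and G4 had 18 and 1 (median 0.56). G10 had 7 higher and 5 lower (median 0.02). Against the other clones 17 were higher in D4 and 2 lower, but 11 and 4 without G10, with medians of 0.41 and 0.15. HMGCS1, which makes the HMG-CoA that statin-sensitive reductase uses, had 216 and 188 CPM in D4, 216 and 221 in H3, 88.1 to 104 CPM in G4 and G10, and 68.4 and 64.8 CPM in the control colony (1.58 ± 0.08). The ranges of D4 and H3 overlapped. The 1 gene lower in D4 than in the control was NSDHL, which lies in the lowered stretch of Xq. SCD, the desaturase of fatty acids, was above all other libraries, with 330 and 296 CPM in D4, 124 to 219 CPM in the other clones and 115 and 106 CPM in the control colony (1.49 ± 0.08), within a fatty acid synthesis list of 15 higher and 1 lower of 28.

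Mitochondrially encoded transcripts were higher in D4 for 13 of 15 and lower for 0 against the control (median 0.44). H3 had 14 higher and 0 lower (median 0.32) and G4 had 11 and 1 (median 0.34). G10 had 2 higher and 3 lower (median -0.07). Against the other clones 13 were higher in D4, or 5 without G10, and 1 was higher than in every other line. MT-CYB, a subunit of complex III, had 2310 and 2380 CPM in D4, 1510 to 2360 CPM in the other clones and 1330 and 1460 CPM in the control colony (0.75 ± 0.05), with D4 and H3 overlapping. Nuclear genes of oxidative phosphorylation had 7 of 36 higher and 10 lower (7 and 8 with median-of-ratios factors, 4 and 3 after subtraction of the window medians), and 9 or 11 called in all without control replicate 1 or 2. Against the other clones 1 was higher and 15 were lower (median -0.16, beside 19.3% lower of all genes), or 0 and 8 after that subtraction. COX4I1, a subunit of complex IV encoded on 16q, was lower (-0.41 ± 0.07, and 0.08 after subtraction of the window median). PPARGC1A, a coactivator of mitochondrial genes, had 8.25 and 7.79 CPM in D4, 6.59 to 12 CPM in G10 and H3, and 0.3 and 0.25 CPM in the control colony.

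Mitotic genes gave different pictures in the 2 comparisons. Of 45 G2/M genes 21 were higher and 4 lower than in the control (median 0.15), whereas 2 were higher and 22 lower than in the other clones (median -0.17). CCNB1, the cyclin of mitotic entry, had 156 and 150 CPM in D4, 231 to 266 CPM in the other clones and 185 and 187 CPM in the control colony. It was below all other libraries (-0.28 ± 0.07 and -0.70 ± 0.05), but it lies in the lowered stretch of chromosome 5 and was at 0.18 from the control after subtraction of the window median. UBE2C, a ubiquitin-conjugating enzyme of anaphase, was at 0.58 ± 0.07 from the control. CDKN2B, an inhibitor of cell cycle kinases, had 72.6 and 71.1 CPM in D4, 29 to 49.4 CPM in the other clones and 35.6 and 35.6 CPM in the control colony (0.99 ± 0.09). Replication-dependent histone genes were lower for 11 of 14 and higher for 0 against the control (median -0.77), with fewer lower without control replicate 2. The other clones shared this, with 8 lower in G4, 11 in G10 and 11 in H3, and 1 higher in H3. Their medians were -0.58, -0.98 and -0.77. D4 had 2 higher and 1 lower against those clones (median 0.18). HIST2H2BE was at 3.75 and 3.15 CPM in D4 and 7 and 6.89 CPM in the control colony (-0.84, and -0.74 without D4 replicate 2, which did not pass).

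Type I interferon genes were higher for 18 of 33 and lower for 3 (median 0.33), and against the other clones 10 were higher and 8 lower (median 0.03). LGALS3BP, a secreted glycoprotein induced by interferon, had 166 and 191 CPM in D4, 118 to 148 CPM in the other clones and 40.8 and 48.6 CPM in the control colony (1.97 ± 0.10). ISG15, a ubiquitin-like protein induced by interferon and named after its values were seen, was at -0.46 (adjusted p = 0.39) and did not pass. Antigen presentation genes were higher for 7 of 20 and lower for 3 against the control, where G4 had 13 higher and 1 lower. Against the other clones, where 15.1% of all genes were higher and 19.3% lower, 3 were higher in D4 and 6 lower (median -0.14). These counts were 2 and 10 without G10. B2M, the light chain of MHC class I, had 305 and 278 CPM in D4, 203 to 236 CPM in the other clones and 174 and 158 CPM in the control colony (0.81 ± 0.08). NLRP1, an inflammasome sensor of keratinocytes, fell to 0.3 and 0.849 CPM in D4, against 20.5 and 21.9 CPM in the control colony (-3.84 ± 0.20), as in G10 and H3.

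**Figure D5:**
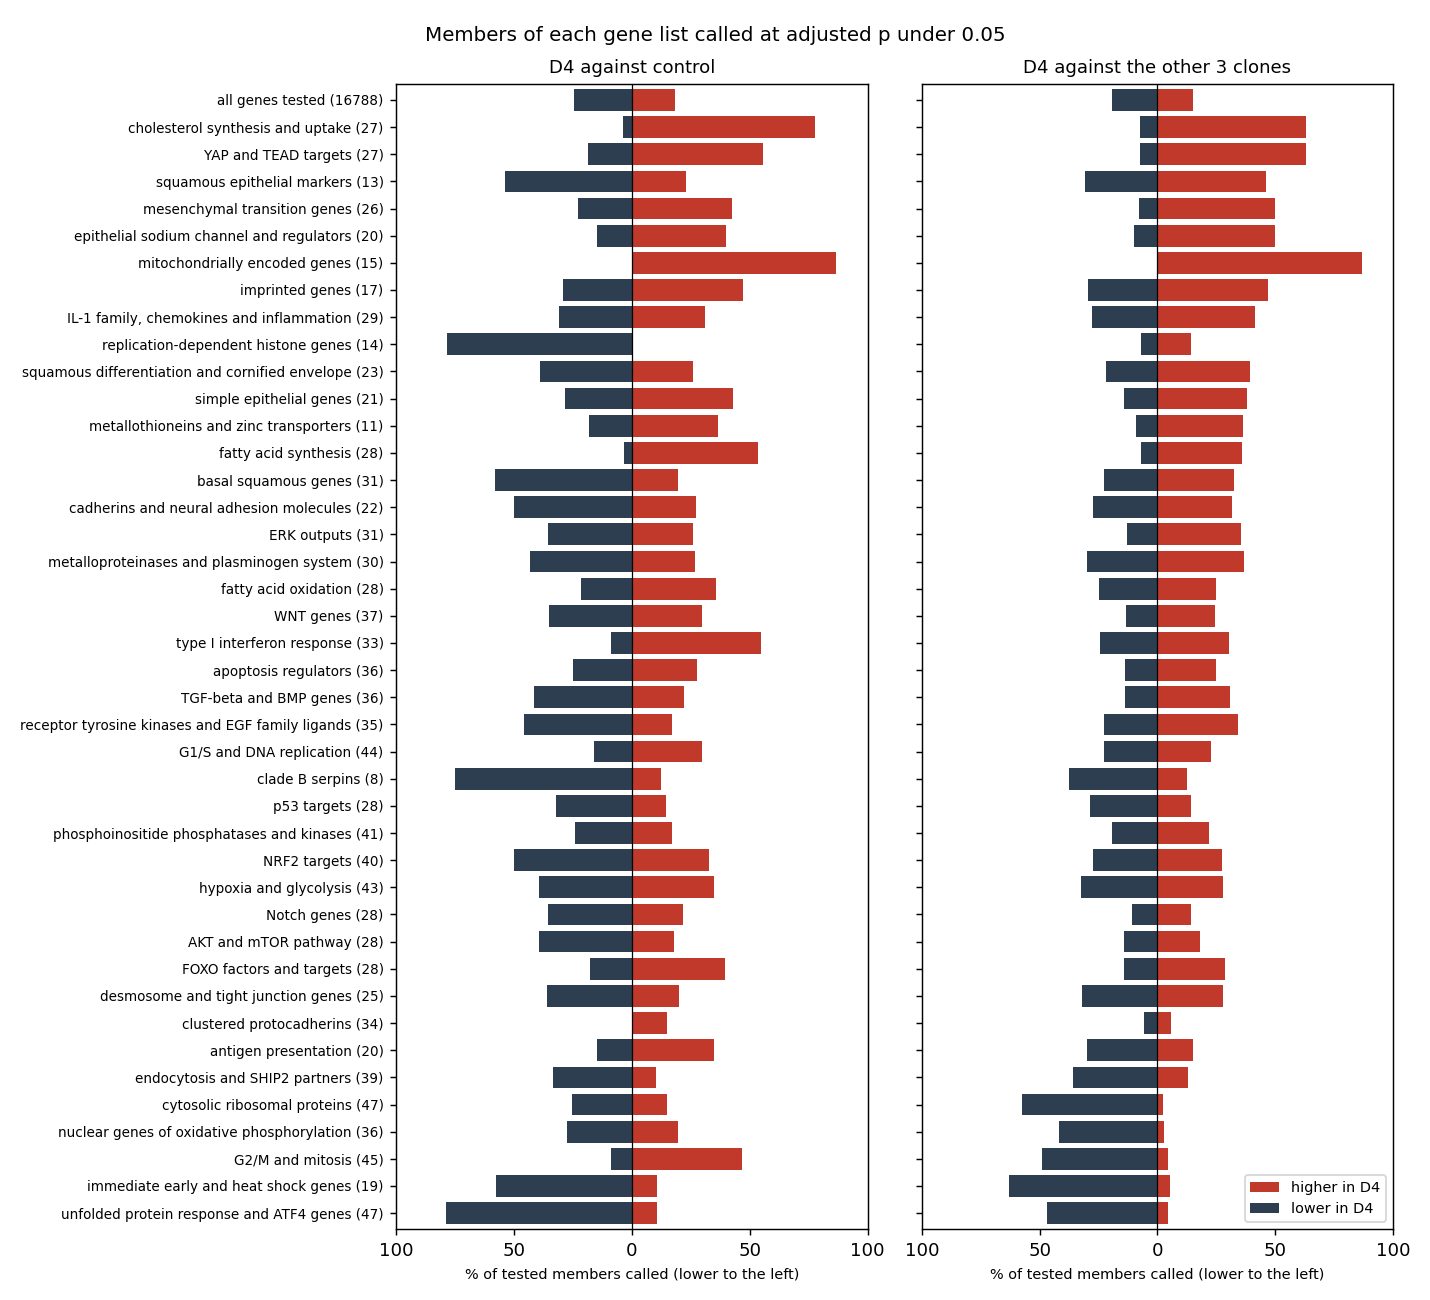
Share of tested members called higher or lower in D4, in percent on the x axis, for lists with at least 8 tested genes and, at the top, for all genes. The left panel is against the control colony and the right one against the mean of the other 3 clones, with lower calls to the left. Against the control, cholesterol synthesis (21 of 27) and mitochondrially encoded genes (13 of 15) have mostly higher calls, and the unfolded protein response and ATF4 list (37 of 47) and histone genes (11 of 14) mostly lower ones.

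The epithelial sodium channel list had 8 of 20 members higher and 3 lower than in the control, or 7 called in all without control replicate 2. SCNN1A, its alpha subunit, had 162 and 166 CPM in D4, 29.6 and 28.9 in G4, 40.3 and 38.7 in G10, 89.5 and 84.6 in H3, and 14.6 and 15.6 CPM in the control colony. D4 was highest and H3 next, and neither overlapped another line. SCNN1G, the gamma subunit, had 52 estimated reads over both D4 libraries and 5 over the control libraries (ratio 12.7, 95% interval 5.11 to 40.8). Of 17 imprinted genes 8 were higher and 5 lower (median 0.13), or 5 and 5 after subtraction of the window medians (median -0.09). NNAT, a small membrane proteolipid, had 15.2 and 19.7 CPM in D4, 5.35 to 11.2 CPM in the other clones and 7.1 and 7.5 CPM in the control colony.

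Markers of other cell types were under 1 CPM in D4 for most members, with a few genes well above. Fibroblast markers summed to 69.1 and 62.4 CPM in D4, 12.2 to 137 CPM in the other clones and 16.5 and 21 CPM in the control colony. Most of this was LUM, the proteoglycan lumican, at 56.8 and 50.1 CPM in D4 and 4.5 and 4.55 CPM in the control colony, while PDGFRB was at 0 in D4 and 2 of 8 markers reached 1 CPM. Leukocyte markers summed to 2.1 and 2.25 CPM in D4 and 5.55 and 6.3 CPM in the control colony, with PTPRC and CSF1R among those at 0 in D4. Endothelial markers summed to 2.2 CPM in each D4 library and 0.85 and 0.999 CPM in the control libraries. Columnar markers summed to 1800 and 1890 CPM in D4 and 786 and 844 CPM in the control colony, nearly all KRT8 and KRT18, with CDX2, KRT20 and TFF3 at 0 in D4. Neuronal markers summed to 36.3 and 45.9 CPM in D4, 54.2 to 76.2 CPM in the other clones and 84 and 103 CPM in the control colony. Nearly all of this was TUBB3, a tubulin, with SNAP25, RBFOX3 and ELAVL3 at 0 in D4. TUBB3 lies in the lowered stretch of 16q. It was at -1.16 from the control and -0.65 from the other clones, and at -0.67 and -0.23 after subtraction of the window median. Melanocyte markers summed to 53.8 and 48.2 CPM in D4, 40.4 to 46.4 CPM in the other clones and 44.4 and 41.4 CPM in the control colony, with TYR at 0 in D4. In bulk RNA of 1 cell line, fewer cells that express a gene and less of its RNA per cell cannot be told apart.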

How the data were processed

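Gene-level CPM values of 58302 genes in 10 libraries were analysed as deposited. Per the submitters' processing notes, reads were aligned to hg38 with STAR 2.5.3a and counted with HTSeq. Per the file headers, the values are CPM, and per the labels' protocols libraries were made with the Ovation Solo kit. The strand setting is not given in the sources used here. The CPM steps gave estimated read totals by library, which set the floors in the report. Since the unit is CPM, no count model was run. GENCODE 29 matched 58039 IDs. limma 3.58.1 (R 4.3.3), with trend and robust settings, was fitted to log2(CPM + 1) of all 10 libraries, with Benjamini-Hochberg adjustment over the 16788 genes at 1 CPM or more in 2 of the 4 libraries. Errors are SE. Scripts were tested on simulated data. Named genes were the 12 largest rises and falls against the control, the 10 largest each way particular to D4 among genes passing against every line, and the called members that changed most in a list, at most 4 against the control and 2 against the other clones. INPPL1, PIK3CA, AKT1, AKT2, EGFR, TP63, SOX2, PLK1 and the genes at window ends were named whatever their change. Members and lists were chosen with earlier results of these data known. Alternatives covered scaling, filters, pseudocount, voom, window medians and left-out libraries. A few genes are not reported here.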

Additional observations from a re-analysis of the deposited data

Results flagged for a closer look

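The values that follow are log2 differences of D4 from the mean of the other 3 clones, in limma on log2(CPM + 1). They are singled out because D4 differed in its change against the control from the other clones by a test of that difference, in which the control cancels out. The genes particular to D4 were chosen by this contrast, so their values are a description. Higher in D4 were RASGRP1 at 3.52, UPK1B at 3.19, SRGN at 3.03, COL5A1 at 3.0, AC083800.1 at 2.70, TGM5 at 2.68, KRT5 at 2.29, ZNF100 at 2.26, OLR1 at 2.26 and CYP2B6 at 2.17. Lower in D4 were PNMA5 at -7.66, SERPINB2 at -3.50, BTBD11 at -3.36, SERPINB10 at -3.17, KLF13 at -2.74, SIRPA at -2.69, GM2A at -2.42, ZNF649 at -2.35, FOXA2 at -2.29 and GPX3 at -2.17. Among genes of prior interest INPPL1 was at 1.19, EGFR at 0.69, TP63 at 0.36, AKT1 at 0.23, PLK1 at -0.48 and SOX2 at -0.85. The INPPL1 value rests largely on G10 and was 0.23 without it, and that of TP63 was 0.05 without it. AKT1 no longer passed without D4 replicate 2, at 0.15.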

How the results depend on the processing

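Leaving out 1 of the 4 D4 and control libraries at a time gave 2341 to 2616 genes higher and 3136 to 3366 lower than in the control, 1459 to 2461 higher and 2151 to 3154 lower than in the other clones, and 254 to 370 higher and 533 to 628 lower than in every other line. Single libraries of G4, G10 and H3 were not left out. Without both G10 libraries the last counts were 846 and 1278, under a looser rule that no longer held the comparison with G10. INPPL1 was then at 0.23 against the other clones. With window medians subtracted the genes lower than in every other line numbered 408. After that subtraction these values changed sign against the control: MTMR1 0.29, NSDHL 0.11, NDUFB5 0.04, COX4I1 0.08, CCNB1 0.18, RPS13 -0.00, RPL13 0.13, AKT2 0.02, TP63 0.19 and PLK1 0.07. Against the other clones MTMR1 0.18, FLNA 0.08, DSC3 0.17 and CASP1 -0.00 did. Without G10, AKR1B10 -0.68 and CASP1 -0.20 did. The cause was not tested. With median-of-ratios factors 3 of 390 values of named genes no longer passed and 0 changed sign, and with voom 9 no longer passed and 0 changed sign. The labels do not say what a replicate number marks. Deviations of samples with equal numbers correlated with those of the control at 0.486 for D4, 0.363 for G4 and 0.595 for G10 but at -0.291 for H3, so the numbers were not taken as pairs. A replicate block gave 3294 higher and 4550 lower than in the control. DESeq2 and edgeR were not run because the values are CPM. Depth limits genes under about 0.3 CPM in D4, and with 2 libraries a line no outlier could be tested.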

Other observations

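Several further gene lists moved little or in both directions, read beside the 18.4% higher and 24.8% lower of all genes against the control. Of 36 TGF-beta and BMP genes 8 were higher and 15 lower, of 37 WNT genes 11 were higher and 13 lower, and of 28 Notch genes 6 were higher and 10 lower. ID2, a helix-loop-helix protein induced by BMP, had 11.3 and 11.8 CPM in D4, 11.9 to 56.6 CPM in the other clones and 50.6 and 48.9 CPM in the control colony (-2.01 in limma). TCF7, a nuclear partner of beta-catenin, had 9.05 and 10 CPM in D4, 11.4 to 34.4 CPM in the other clones and 31 and 29.4 CPM in the control colony (-1.57). MAML2, a Notch coactivator, was higher, at 32.9 and 30.9 CPM in D4, 13.9 to 24.1 CPM in the other clones and 12.5 and 11.3 CPM in the control colony (1.35). Both D4 libraries were beyond the other 8 for TCF7 and MAML2.

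Of 40 NRF2 targets, genes of oxidant defence, 13 were higher and 20 lower than in the control. Against the other clones 11 were higher and 11 lower, or 1 and 26 without the G10 libraries. Of 43 hypoxia and glycolysis genes 15 were higher and 17 lower, or 16 and 14 with median-of-ratios factors. NDRG1, a hypoxia-induced gene, fell to 25.8 and 27 CPM in D4, against 240 and 222 CPM in the control colony (-3.08), while PFKFB4, a regulator of glycolysis, rose to 97.9 and 104 CPM in D4, against 38.9 and 43.4 CPM (1.28). MT1X, a metallothionein, had 32.2 and 33 CPM in D4, 12 to 21.4 CPM in the other clones and 7.54 and 7.34 CPM in the control colony (1.99), and 4 of the 11 metallothioneins and zinc transporters were higher and 2 lower. Cytosolic ribosomal proteins leaned low against the other clones, with 27 of 47 lower and 1 higher (median -0.15), beside 19.3% lower and 15.1% higher of all genes. In that comparison 20 were lower and 0 higher after subtraction of the window medians, and 20 and 3 with median-of-ratios factors. From the control 7 were higher and 12 lower, a split of 10 and 7 with median-of-ratios factors and of 9 and 6 after subtraction of the window medians. Fewer of these calls held without D4 replicate 1 or without control replicate 2. Of 34 clustered protocadherins 2 were higher and 2 lower than in the other clones, or 4 and 23 without G10.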
